A study of Mus musculus with 18 samples.

Results

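The 44 genes described here serve the step from G1 into S phase and the copying of DNA that follows. They were taken by gene symbol from a table of 15288 genes, all 44 were in it, and all 44 passed the minimum of a mean of 1 CPM (read counts scaled to a common library total) that 11835 genes passed. RNA was sequenced in 18 libraries of mouse cells labelled pulmonary microvascular endothelial cells, whereas the series title names pulmonary vascular smooth muscle. Cells received small interfering RNA (siRNA) against CYP1B1, a cytochrome that metabolizes E2 (estradiol), or scrambled siRNA, and 24 hours later 1 uM 16aOHE, 1 uM E2 or vehicle in 5% serum for 24 hours. The 6 groups of 3 libraries were therefore siCYP1B1 with 16aOHE, siCYP1B1 with E2, siCYP1B1 with vehicle, scrambled with 16aOHE, scrambled with E2 and scrambled with vehicle. Every group was transfected with lipid, so none of them shows untransfected cells, and the sources used here do not give the siRNA sequence, the origin of the cells or their passage.

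A cell commits to a round of division when D-type cyclins with CDK4 or CDK6, and then cyclin E with CDK2, phosphorylate the retinoblastoma protein and so free E2F transcription factors. E2F targets include the genes that load the MCM helicase on origins, that copy DNA and that make its building blocks, and their mRNAs rise as cells approach S phase. The levels of such mRNAs in a bulk culture therefore follow the share of cells in cycle as well as the amount per cell, and these cannot be told apart in bulk samples.

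Many of these genes are known E2F targets, so promoters are shown of genes that the results below turn on, with and without an E2F-like motif. RefSeq promoter windows on GRCm38.p6, from 250 bases before to 50 after a start site, were matched for 37 of the 44 genes and came to 44 windows. The letters TTTNNCGC or their reverse complement GCGNNAAA, an E2F-like motif searched on both strands with overlaps counted, stood in 17 of the 44 windows (38.6%), against 1698 of 32851 windows in the whole table (5.17%). The windows printed with the motif are those of 3 MCM helicase genes on the minus strand, Mcm3 (chr1:20820263-20820562), Mcm6 (chr1:128359656-128359955) and Mcm7 (chr5:138171834-138172133), and on the plus strand those of Mcm5 (chr8:75109259-75109558) and Uhrf1 (chr17:56303087-56303386). Windows of 5 genes described at length below lacked these letters and are printed too: Ccne1 (chr7:38107441-38107740), Tk1 (chr11:117825965-117826264) and Pcna (chr2:132253131-132253430) on the minus strand, and Rrm2 (chr12:24708004-24708303) and Rrm1 (chr7:102441445-102441744) on the plus strand. All are 5′ to 3′ in the direction of the gene, and capitals mark the motif.
Mcm3: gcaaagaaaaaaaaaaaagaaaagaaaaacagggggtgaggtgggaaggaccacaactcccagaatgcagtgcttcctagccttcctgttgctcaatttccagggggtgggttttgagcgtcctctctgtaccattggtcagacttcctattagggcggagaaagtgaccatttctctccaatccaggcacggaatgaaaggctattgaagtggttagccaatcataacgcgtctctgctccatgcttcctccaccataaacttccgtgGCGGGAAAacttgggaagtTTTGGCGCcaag
Mcm5: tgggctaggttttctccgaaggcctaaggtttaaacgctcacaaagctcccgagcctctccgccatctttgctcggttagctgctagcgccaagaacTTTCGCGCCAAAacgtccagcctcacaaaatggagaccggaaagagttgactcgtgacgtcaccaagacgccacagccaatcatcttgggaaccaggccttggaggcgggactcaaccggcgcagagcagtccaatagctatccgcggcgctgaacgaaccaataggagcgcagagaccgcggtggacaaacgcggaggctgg
Mcm6: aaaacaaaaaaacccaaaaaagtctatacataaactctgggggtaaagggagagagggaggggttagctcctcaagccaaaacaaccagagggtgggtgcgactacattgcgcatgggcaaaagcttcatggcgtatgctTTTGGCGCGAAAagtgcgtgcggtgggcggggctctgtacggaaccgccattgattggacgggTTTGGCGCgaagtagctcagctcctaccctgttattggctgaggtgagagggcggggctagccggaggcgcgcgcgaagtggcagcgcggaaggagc
Mcm7: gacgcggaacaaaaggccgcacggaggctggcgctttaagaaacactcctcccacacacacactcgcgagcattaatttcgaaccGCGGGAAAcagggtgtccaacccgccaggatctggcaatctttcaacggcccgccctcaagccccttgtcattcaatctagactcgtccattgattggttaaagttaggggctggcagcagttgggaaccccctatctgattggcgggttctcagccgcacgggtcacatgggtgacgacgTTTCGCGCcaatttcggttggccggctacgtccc
Uhrf1: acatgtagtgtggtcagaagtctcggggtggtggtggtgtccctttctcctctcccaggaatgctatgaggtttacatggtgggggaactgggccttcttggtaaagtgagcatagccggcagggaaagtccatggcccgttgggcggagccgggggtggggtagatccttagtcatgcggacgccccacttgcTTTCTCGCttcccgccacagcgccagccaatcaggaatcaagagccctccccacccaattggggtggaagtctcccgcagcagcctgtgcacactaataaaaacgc
Ccne1: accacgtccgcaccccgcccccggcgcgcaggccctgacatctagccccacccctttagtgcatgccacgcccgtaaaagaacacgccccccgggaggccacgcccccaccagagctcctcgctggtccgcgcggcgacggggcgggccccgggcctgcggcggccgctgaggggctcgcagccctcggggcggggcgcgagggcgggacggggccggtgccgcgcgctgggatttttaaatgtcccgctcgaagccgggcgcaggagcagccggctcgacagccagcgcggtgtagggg
Rrm2: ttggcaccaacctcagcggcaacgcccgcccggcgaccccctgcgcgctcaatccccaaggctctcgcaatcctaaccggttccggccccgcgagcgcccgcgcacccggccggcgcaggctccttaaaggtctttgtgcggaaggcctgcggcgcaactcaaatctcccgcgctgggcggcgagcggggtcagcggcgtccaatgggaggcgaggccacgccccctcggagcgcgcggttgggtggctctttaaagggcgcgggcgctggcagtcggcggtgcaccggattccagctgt
Pcna: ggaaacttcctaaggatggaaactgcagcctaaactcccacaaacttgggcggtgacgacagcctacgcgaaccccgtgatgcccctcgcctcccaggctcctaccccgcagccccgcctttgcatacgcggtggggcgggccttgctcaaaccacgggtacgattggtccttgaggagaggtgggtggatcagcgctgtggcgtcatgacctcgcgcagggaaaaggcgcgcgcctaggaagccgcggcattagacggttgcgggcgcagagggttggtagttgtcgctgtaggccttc
Tk1: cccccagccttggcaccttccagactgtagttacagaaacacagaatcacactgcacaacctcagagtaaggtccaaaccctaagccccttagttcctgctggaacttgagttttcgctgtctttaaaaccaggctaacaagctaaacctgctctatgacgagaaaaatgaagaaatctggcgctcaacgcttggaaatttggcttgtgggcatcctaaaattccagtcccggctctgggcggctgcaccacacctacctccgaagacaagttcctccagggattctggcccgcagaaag
Rrm1: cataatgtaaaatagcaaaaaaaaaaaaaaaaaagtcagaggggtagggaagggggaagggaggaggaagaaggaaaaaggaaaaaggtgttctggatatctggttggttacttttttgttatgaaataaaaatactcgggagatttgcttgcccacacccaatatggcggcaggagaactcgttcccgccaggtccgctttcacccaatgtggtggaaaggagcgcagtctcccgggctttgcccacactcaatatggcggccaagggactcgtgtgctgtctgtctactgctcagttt
Mcm7 and Uhrf1 have a further window each, not shown, of which that of Uhrf1 also holds the motif. The Mcm6 window held 3 matches, of which 2 overlap, and the Mcm5 window held 2 that overlap. By gene, the letters were in a window of 16 of the 37 genes matched. Among these 37 they were in the windows of 9 of the 15 that fell with E2 in scrambled cells, of 7 of 12 in siCYP1B1 cells, and of 6 of 16 that were higher with siCYP1B1 in any arm. Whether called genes differ from the 37 in this was not tested. The shorter letters CCAAT, or ATTGG on the other strand, stood in 27 of the 44 windows (61.4%) against 37.41% of all windows, and TTTGAA or TTCAAA in 5 (11.4%) against 17.89%. A match is a description of these letters only.

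The siRNA target itself was lower in the siCYP1B1 libraries by a small margin. Cyp1b1 averaged 81.5 ± 0.724 CPM in siCYP1B1 vehicle cells and 92.2 ± 3.58 CPM in scrambled vehicle cells (SD, n = 3 each), a log2 difference of -0.18 ± 0.03 (SE; adjusted p = 0.000982, limma). With E2 the means were 102.6 ± 1.95 CPM in siCYP1B1 cells and 117.6 ± 1.06 CPM in scrambled cells, and with 16aOHE they were 90.1 ± 1.39 CPM in siCYP1B1 cells and 106.3 ± 1.25 CPM in scrambled cells (SD, n = 3 each). No siCYP1B1 library overlapped a scrambled library of the same arm, but the mRNA fell by 11.7% to 15.2% only. Markers of the labelled cell type were mixed: 7 of 12 were in the table, and over the 18 libraries Pecam1 (mean 0.0482 CPM), Vwf (0.0306 CPM) and Tek (0.824 CPM) were under 1 CPM, whereas Kdr averaged 4.37, Eng 7.76, Esam 18.9 and Flt1 70.0 CPM. Of 6 smooth muscle markers, Myh11 (0.0765 CPM), Cnn1 (0.106 CPM) and Des (0.727 CPM) were under 1 CPM, while Tagln averaged 2.66, Acta2 20.5 and Smtn 90.1 CPM. Of 4 leukocyte markers, Ptprc (0.0313 CPM) and Itgam (0.0291 CPM) were near 0, while Cd68 averaged 12.3 and Cd14 22.0 CPM. Of 5 fibroblast markers, Lum (0.0428 CPM) was near 0 and Pdgfra averaged 3.31 CPM, while Dcn averaged 309, Col1a1 1946 and Col3a1 2488 CPM. Of 7 mesothelial and epithelial markers, Krt8 (0.522 CPM) was under 1 CPM, and Cdh1 averaged 3.09 and Krt18 3.87 CPM. The others were higher, with Wt1 at 256.1, Krt19 at 433.7, Upk3b at 824.5 and Msln at 1521 CPM. Judged from the steps between low values, libraries ranged in depth from 14.0 to 38.4 reads per CPM.

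Per kilobase of exon, the most abundant of the 44 was Ccnd1, which encodes cyclin D1, at a mean level of 382 ± 21.0 CPM per kb over all libraries (SD, n = 18). Rrm2 and Rrm1, the subunits of the ribonucleotide reductase that makes deoxynucleotides, stood at 255 ± 21.4 and 169 ± 14.0 CPM per kb, and Cdk4, the partner kinase of cyclin D, at 238 ± 9.94 CPM per kb (SD, n = 18). The 6 genes of the MCM2-7 helicase lay close together, between 82.1 CPM per kb for Mcm6 and 110 CPM per kb for Mcm2. The lowest levels were those of E2f2, an activating E2F, at 4.68 ± 0.431 CPM per kb and of the repressor E2f7 at 7.78 ± 0.581, while E2F relatives stood higher, at 19.8 ± 1.82 for the activator E2f1 and 20.2 ± 1.69 for the repressor E2f8 (SD, n = 18). Cyclin-dependent kinase Cdk6 stood at 16.3 ± 1.71 CPM per kb, well under Cdk4. In the deposited mm10 coordinates, the gene bodies of 4 genes that lead the results are Ccne1 at chr7:38097984-38107490, Rrm2 at chr12:24708254-24714146, Rrm1 at chr7:102441695-102469771 and Tk1 at chr11:117815519-117826014.

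Differences between groups were small for every gene. Over the 9 comparisons of groups, 29 of the 44 genes passed an adjusted p of 0.05 at least once, in 85 calls whose largest was 0.40 on the log2 scale, and 14 genes were called higher in some comparison and lower in another. The same counts were not made over all tested genes, so these do not set the 44 apart. The 15 that passed in none were Cdc25a, Cdc45, Cdk2, Cdk4, Cdt1, Chaf1a, Chaf1b, Gins1, Gins2, Lig1, Mcm10, Pole, Rfc3, Rfc4 and Slbp. All 4 genes of helicase activation are among them, as are both subunits of the chromatin assembly factor in the list.

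**Figure D1:**
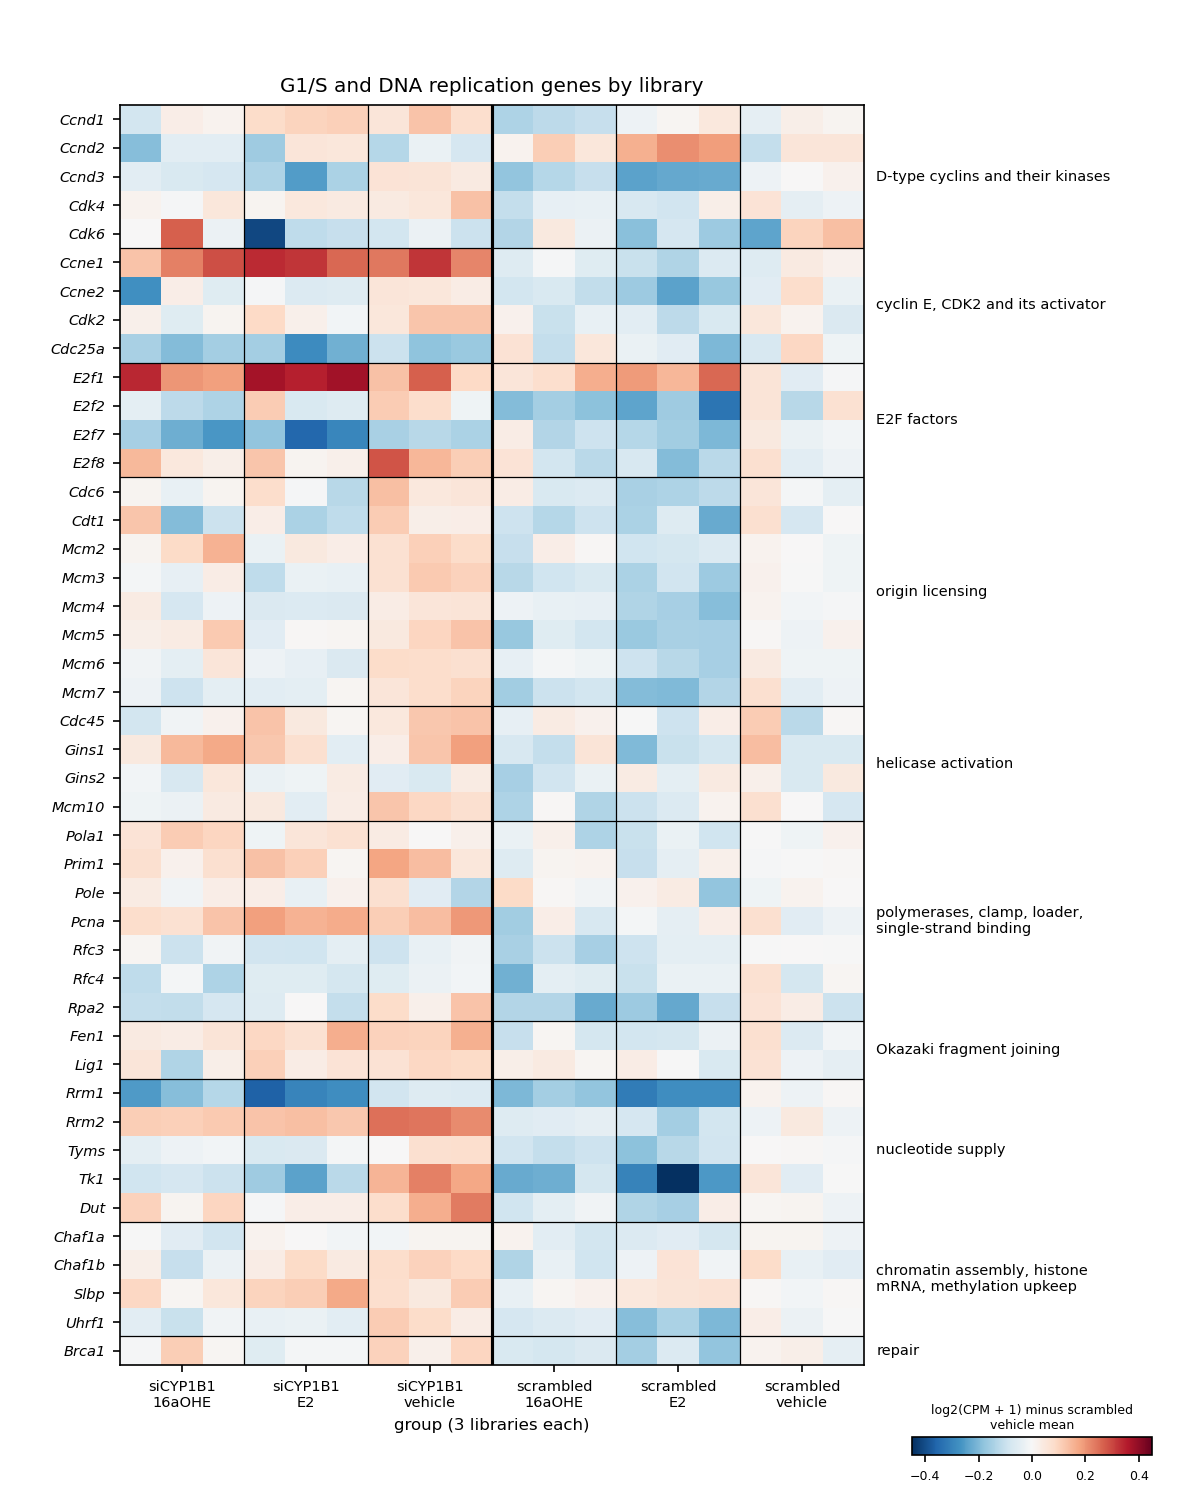
Each row is a gene and each column a library, in 6 groups of 3; colour gives log2(CPM + 1) minus the mean of the 3 scrambled vehicle libraries, on a scale from -0.45 to 0.45, and black lines part the groups and the roles. Ccne1, Rrm2 and Pcna are redder in the siCYP1B1 columns, and Rrm1, Tk1 and Ccnd3 are bluest in the E2 columns of either siRNA.

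The first comparison asks what CYP1B1 siRNA did to these genes in vehicle, where 9 of the 44 rose and none fell. The 9 were Ccne1, Rrm2, Tk1, E2f8, E2f1, Dut, Pcna, Fen1 and Mcm3, which span cyclin E, E2F factors, nucleotide supply and the replication fork. Of all tested genes 11.5% were called higher and 9.12% lower in this comparison, against 20.5% and 0% of the 44. The median log2 difference of the 44 was 0.08, against 0.03 over all tested genes, and 35 of 44 were above 0. In limma without adjustment 19 of the 44 were higher and 3 lower at p under 0.05, a threshold that 32.7% of all tested genes passed in either direction.

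Ccne1 encodes cyclin E1, which activates CDK2 at the G1/S boundary. It had 118.1, 125.3 and 116.7 CPM in siCYP1B1 vehicle libraries, against 95.98, 102.8 and 101.4 CPM in scrambled vehicle libraries. Every siCYP1B1 library lay above every scrambled library, and the difference was 19.9% (log2 0.26 ± 0.04 SE, limma adjusted p = 0.000219). With E2 Ccne1 had 126.6, 125.1 and 119.7 CPM in siCYP1B1 libraries, against 93.28, 90.94 and 95.77 CPM in scrambled libraries, again with no overlap. This was the largest difference seen for any of the 44 genes in the comparisons of groups, 32.6% (log2 0.40 ± 0.04 SE, adjusted p = 9.14e-07). With 16aOHE it had 109.3, 117.1 and 122.5 CPM in siCYP1B1 libraries, against 96.1, 99.75 and 96.38 CPM in scrambled libraries (log2 0.25 ± 0.04 SE, adjusted p = 0.000335). The groups were apart in this arm too. Its partner kinase Cdk2 was not called in any arm, nor was Ccne2, the gene of cyclin E2, whose log2 difference was 0.05 in vehicle, 0.15 with E2 and -0.01 with 16aOHE.

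Rrm2 encodes the small subunit of ribonucleotide reductase, which cells make as they enter S phase. It had 637.0, 633.3 and 621.3 CPM in siCYP1B1 vehicle libraries, against 528.3, 553.4 and 527.1 CPM in scrambled vehicle libraries. The siCYP1B1 libraries lay above all scrambled ones, by 17.6% (log2 0.23 ± 0.03 SE, limma adjusted p = 7.74e-06), and the difference with E2 was nearly the same (log2 0.23 ± 0.03 SE, adjusted p = 6.85e-06). With 16aOHE Rrm2 had 578.3, 578.2 and 582.0 CPM in siCYP1B1 libraries, against 514.8, 517.7 and 521.3 CPM in scrambled libraries, a narrow spread in both groups (log2 0.16 ± 0.03 SE, adjusted p = 0.000508). The large subunit gene Rrm1 was not called, at -0.07, -0.02 and -0.01 log2 in the vehicle, E2 and 16aOHE arms. Pcna, the sliding clamp of DNA polymerases, was the remaining gene called higher in all 3 arms, with log2 differences of 0.15 ± 0.04, 0.17 ± 0.04 and 0.16 ± 0.04 (SE) in vehicle, E2 and 16aOHE. It had 189.6, 193.4 and 201.1 CPM in siCYP1B1 vehicle libraries, against 184.7, 169.3 and 172.9 CPM in scrambled vehicle libraries, groups that were apart but close. Named copies of Pcna exist in the reference gene table (Pcna-ps1 and Pcna-ps2), so reads of near-identical copies could be counted with it.

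**Figure D2:**
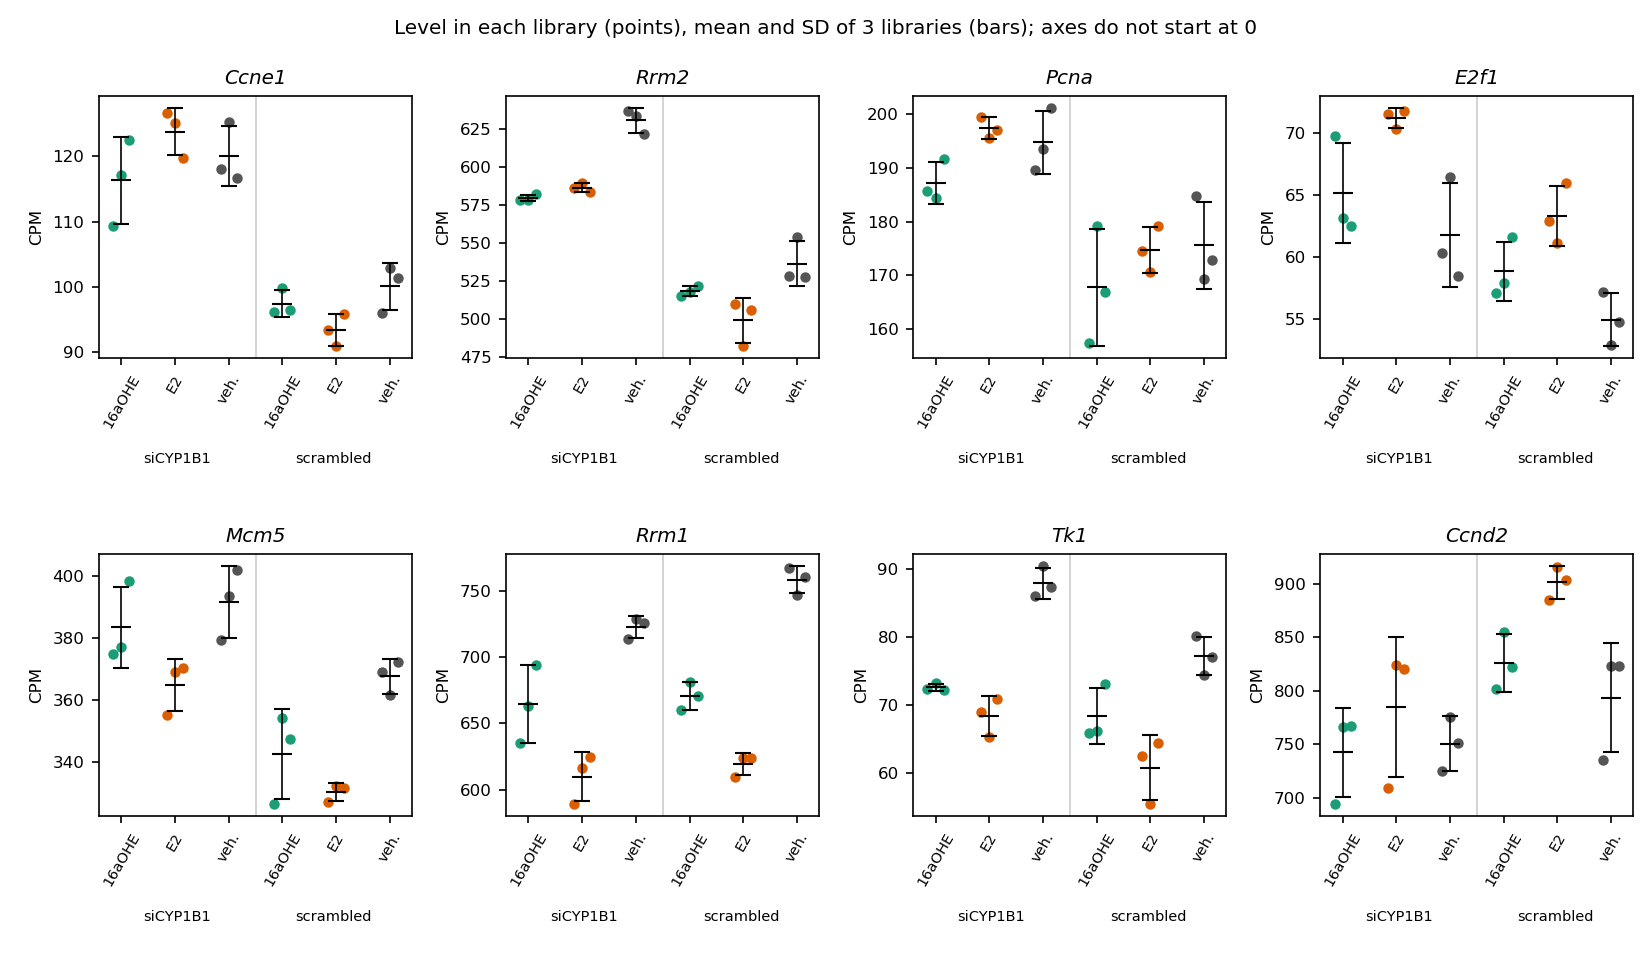
CPM of 8 of the genes in every library (points), with the mean and SD of 3 libraries as bars; siCYP1B1 groups stand left of scrambled groups and the CPM axes do not start at 0. Ccne1 lies between 109.3 and 126.6 CPM in the 9 siCYP1B1 libraries and between 90.94 and 102.8 CPM in the 9 scrambled libraries, while Rrm1 and Tk1 part by estrogen.

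Under E2, siCYP1B1 libraries had 13 of the 44 genes higher and 1 lower. Ccne1, E2f2, Rrm2, E2f8, Pcna, Fen1, Tk1, E2f1, Mcm7, Uhrf1, Mcm5, Prim1 and Mcm4 rose, and Ccnd2, the gene of cyclin D2, fell, though the call of Prim1 was lost in 16 of 23 alternatives. The shares of all tested genes were 11.4% higher and 9.8% lower, against 29.5% and 2.27% of the 44, and the median of the 44 was 0.09 against 0.03 over all. E2f2, an activating E2F, had 25.37, 22.27 and 22.41 CPM in siCYP1B1 E2 libraries, against 19.68, 20.85 and 18.42 CPM in scrambled E2 libraries (log2 0.24 ± 0.07 SE, limma adjusted p = 0.0181). Its groups did not overlap, though it was not called in vehicle (log2 0.06). Ccnd2 had 709.0, 823.9 and 820.6 CPM in siCYP1B1 E2 libraries, against 885.2, 915.6 and 903.1 CPM in scrambled E2 libraries (log2 -0.20 ± 0.05 SE, adjusted p = 0.00993). The first siCYP1B1 library was lowest by far, and without it the call was lost. The labels do not pair libraries between groups. In accession order, the first library was the lowest of its group for Ccnd1 and Ccnd2 and the highest for E2f8 in all 6 groups. It was lowest in all 6 for 1.08% and highest for 4.36% of all tested genes. For the second library these shares were 0.279% and 0.186%, and for the third 0.161% and 0.144%. The part of this order in the results was not tested.

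Under 16aOHE, 7 of the 44 were higher in siCYP1B1 cells and 2 lower. Ccne1, Mcm5, Rrm2, Pcna, Pola1, Mcm2 and Ccnd1 rose, while Ccnd2 and E2f7 fell. Of the 23 alternatives run, the call was lost in 18 for Mcm2, 15 for Ccnd2, 14 for E2f7 and 8 for Ccnd1. Of all tested genes 10.4% were higher and 9.31% lower, against 15.9% and 4.55% of the 44, with medians of 0.07 for the 44 and 0.01 for all. Mcm5, a subunit of the replicative helicase, had 374.6, 376.9 and 398.4 CPM in siCYP1B1 16aOHE libraries, against 326.3, 354.0 and 347.2 CPM in scrambled 16aOHE libraries (log2 0.16 ± 0.04 SE, limma adjusted p = 0.00265). The groups were apart, as they were for Mcm5 under E2 (log2 0.14 ± 0.04 SE, adjusted p = 0.00618). E2f7, an atypical E2F that represses E2F targets, had 60.93, 58.05 and 56.27 CPM in siCYP1B1 16aOHE libraries, against 69.24, 61.65 and 63.41 CPM in scrambled 16aOHE libraries (log2 -0.15 ± 0.05 SE, adjusted p = 0.046). The margin between the nearest libraries was under 1 CPM.

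The 3 siRNA comparisons share no library. Each gene's estimate of spread came from all 18 libraries and is the same in each, so their calls are not independent. Called higher in vehicle and also with E2 were 7 genes, 77.8% of the 9 and 53.8% of the 13, and 3 of the 9 (33.3%) were among the 7 called with 16aOHE (42.9% of them). Differences were above 0 in all 3 arms for 31 of the 44 genes and below 0 in all 3 for 4. Overlaps and signs were not counted over all tested genes, whose median log2 differences were 0.03, 0.03 and 0.01 in vehicle, E2 and 16aOHE. E2f1 and its repressing relative E2f8 rose in vehicle and with E2, and had log2 differences of 0.14 and 0.12 with 16aOHE, where neither passed. Of 23 alternatives, the call of E2f1 was lost in 5 in vehicle and 6 with E2, and that of E2f8 in 3 and 2. With median-of-ratios size factors the call of E2f1 was lost in both arms. Cdc25a, the phosphatase that activates CDK2, had values below 0 in each arm (log2 -0.15, -0.12 and -0.17 in vehicle, E2 and 16aOHE) and passed in none, with adjusted p = 0.083, 0.144 and 0.0502 in limma.

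**Figure D3:**
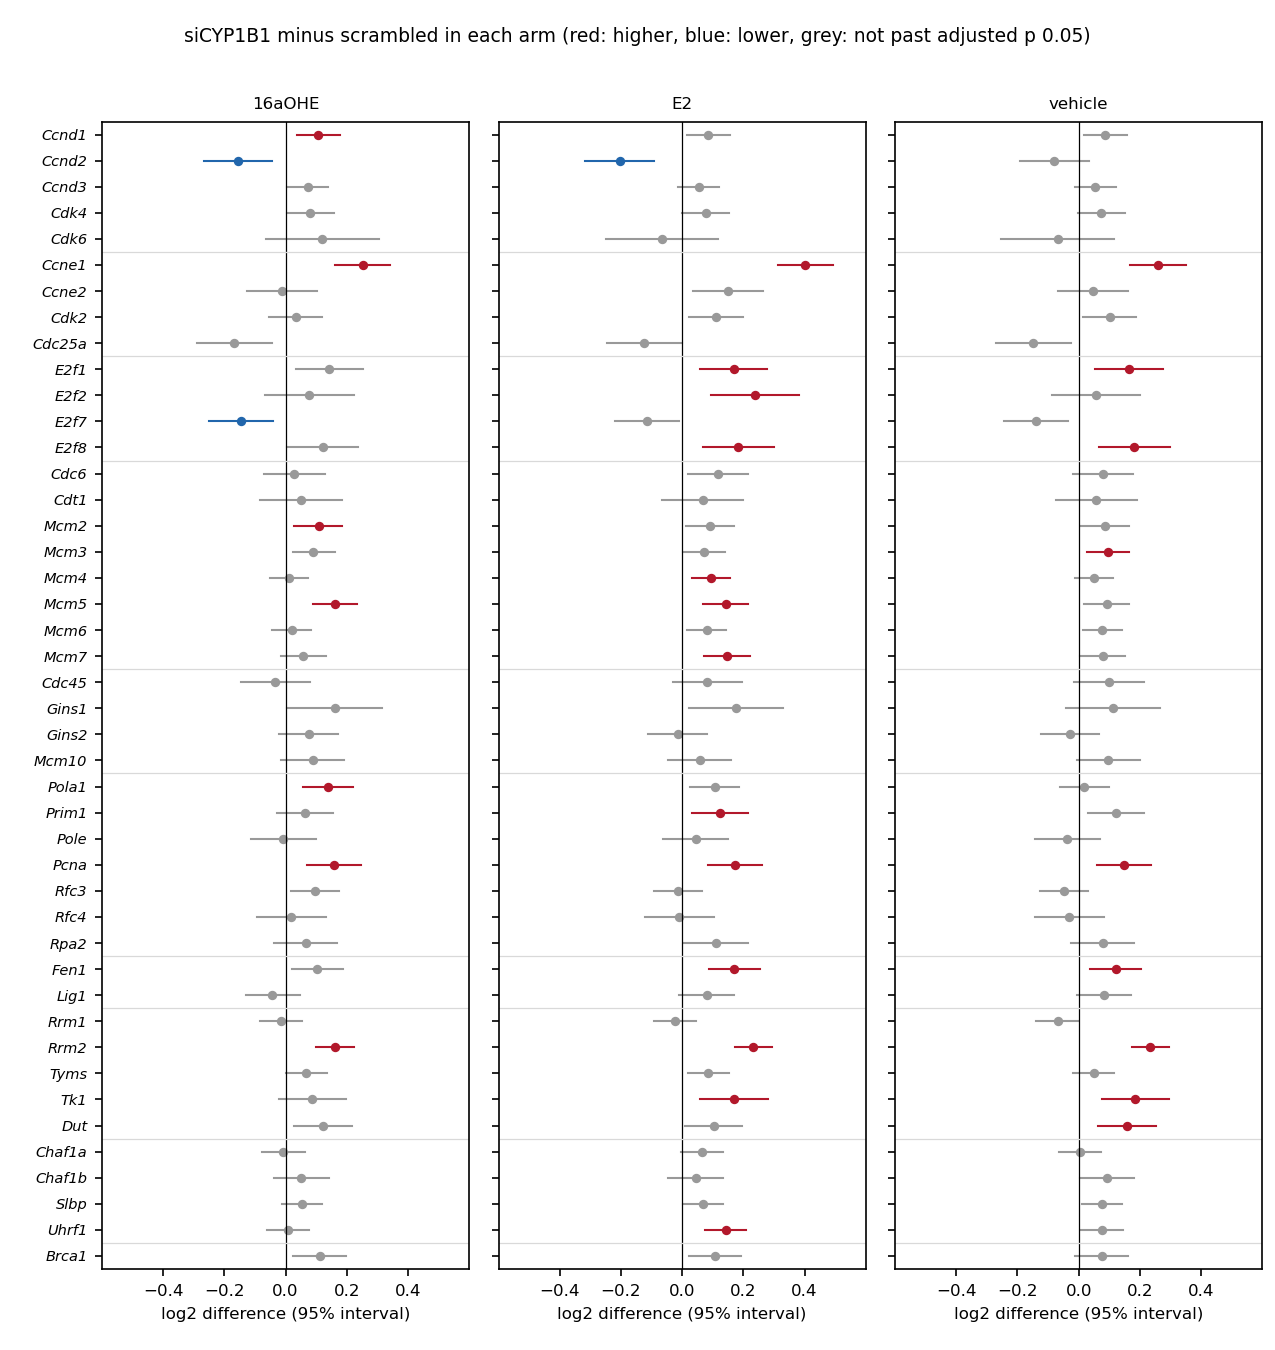
Log2 difference, siCYP1B1 minus scrambled, with its 95% interval for each of the 44 genes in the 16aOHE, E2 and vehicle arms; red marks genes called higher, blue genes called lower and grey the rest. Ccne1 stands farthest right in each panel, at 0.25, 0.40 and 0.26.

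By role, nucleotide supply led in vehicle with 3 of 5 genes higher (Rrm2, Tk1 and Dut), and the E2F factors led under E2 with 3 of 4 higher (E2f1, E2f2 and E2f8). Of all tested genes 11.5% were higher in vehicle, 11.4% with E2 and 10.4% with 16aOHE. Roles of so few genes give coarse shares. All 8 licensing genes were above 0 in each arm, and 1, 3 and 2 of them passed in vehicle, E2 and 16aOHE. These are shares of 12.5%, 37.5% and 25%, and the share in vehicle was near that of all genes. Summed over the 44 genes, siCYP1B1 vehicle libraries held 10070 to 10260 CPM and scrambled vehicle libraries 9756 to 9763 CPM. With E2 the sums were 9600 to 9818 CPM in siCYP1B1 libraries and 9221 to 9348 CPM in scrambled libraries, and with 16aOHE they were 9563 to 9851 CPM in siCYP1B1 libraries and 9179 to 9443 CPM in scrambled libraries. The sums did not overlap between the siRNAs in any arm, but the median log2 difference over all tested genes was also above 0 (0.03, 0.03 and 0.01 in vehicle, E2 and 16aOHE). Abundant genes weigh most in a sum. Ccnd1 averaged 1505 CPM in siCYP1B1 vehicle libraries and 1417 CPM in scrambled vehicle libraries, and was not called in vehicle.

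Other markers moved with the siRNA. The 7 mesothelial and epithelial markers summed to 2861 to 3005 CPM in siCYP1B1 vehicle libraries and 3667 to 3750 CPM in scrambled vehicle libraries, and the 5 fibroblast markers to 4840 to 5114 CPM and 6037 to 6358 CPM in the same groups. Of the tested markers of these lists, 4 of 6 and 2 of 4 were called lower with siCYP1B1 in vehicle. So were 2 of 4 endothelial, 2 of 3 smooth muscle and 0 of 2 leukocyte markers, against 9.12% of all tested genes. Mesothelial and fibroblast sums with E2 and 16aOHE were also lower in siCYP1B1 libraries. The part of these markers in the differences of the 44 genes was not tested. Scaling bears on these counts: with median-of-ratios size factors the vehicle comparison gave 6 higher and 2 lower, and with quantile normalization 10 and 2. The 9 higher in vehicle became 4 without siCYP1B1 vehicle library 2 and 3 without scrambled vehicle library 2 or 3, the 13 under E2 became 8 without siCYP1B1 E2 library 1, and the 7 under 16aOHE became 4 without siCYP1B1 16aOHE library 3. The 1 lower under E2 became 2 without scrambled E2 library 3, and the 2 lower under 16aOHE became 0 or 1 in 13 of the 18 fits that left out a library.

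The second question is what E2 did to these genes, and here the direction was mostly down. The vehicle libraries are also those of the siRNA comparison in vehicle, so these comparisons are not independent of that one. In siCYP1B1 cells 13 of the 44 fell and 1 rose, and in scrambled cells 17 fell and 2 rose. The share of all tested genes called lower was 10.8% in siCYP1B1 cells and 11.4% in scrambled cells, against 29.5% and 38.6% of the 44 genes. The share of all called higher was 16.7% in siCYP1B1 cells and 18.6% in scrambled cells, against 2.27% and 4.55% of the 44. Medians of the 44 were -0.07 in siCYP1B1 cells and -0.10 in scrambled cells on the log2 scale, while the medians over all genes were 0.04 and 0.03.

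All 5 nucleotide supply genes fell with E2 in siCYP1B1 cells and 4 of 5 in scrambled cells, where 10.8% and 11.4% of all tested genes fell. Tk1 encodes the cytosolic thymidine kinase of the salvage route and had 69.01, 65.19 and 70.87 CPM in siCYP1B1 E2 libraries, against 85.98, 90.41 and 87.27 CPM in siCYP1B1 vehicle libraries. In scrambled cells it had 62.51, 55.39 and 64.38 CPM with E2, against 80.11, 74.42 and 77.04 CPM with vehicle. Every E2 library lay below every vehicle library of its siRNA, with log2 differences of -0.36 ± 0.05 in siCYP1B1 cells and -0.34 ± 0.05 in scrambled cells (SE; limma adjusted p = 3.81e-05 and 5.41e-05). Rrm1 had 589.2, 616.4 and 624.4 CPM in siCYP1B1 E2 libraries, against 713.6, 728.8 and 726.0 CPM in siCYP1B1 vehicle libraries. It had 609.5, 624.3 and 624.2 CPM in scrambled E2 libraries, against 767.6, 747.2 and 760.3 CPM in scrambled vehicle libraries. The groups lay far apart compared with their spread, and Rrm1 fell by 0.25 ± 0.03 in siCYP1B1 cells and by 0.29 ± 0.03 in scrambled cells on the log2 scale (SE; adjusted p = 1.17e-05 and 1.24e-06). Rrm2 fell by about 0.10 in either siRNA (adjusted p = 0.0105 and 0.0103), as did Tyms, thymidylate synthase (log2 -0.10 in siCYP1B1 cells and -0.13 in scrambled cells, adjusted p = 0.0321 and 0.00397). Dut, the dUTPase that keeps uracil out of DNA, fell in siCYP1B1 cells (log2 -0.14 ± 0.05 SE, adjusted p = 0.0248) and had -0.09 in scrambled cells without passing. Tk1 overlaps Afmid on the opposite strand in the deposited table, and the sources used here do not say whether counting used strand.

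**Figure D4:**
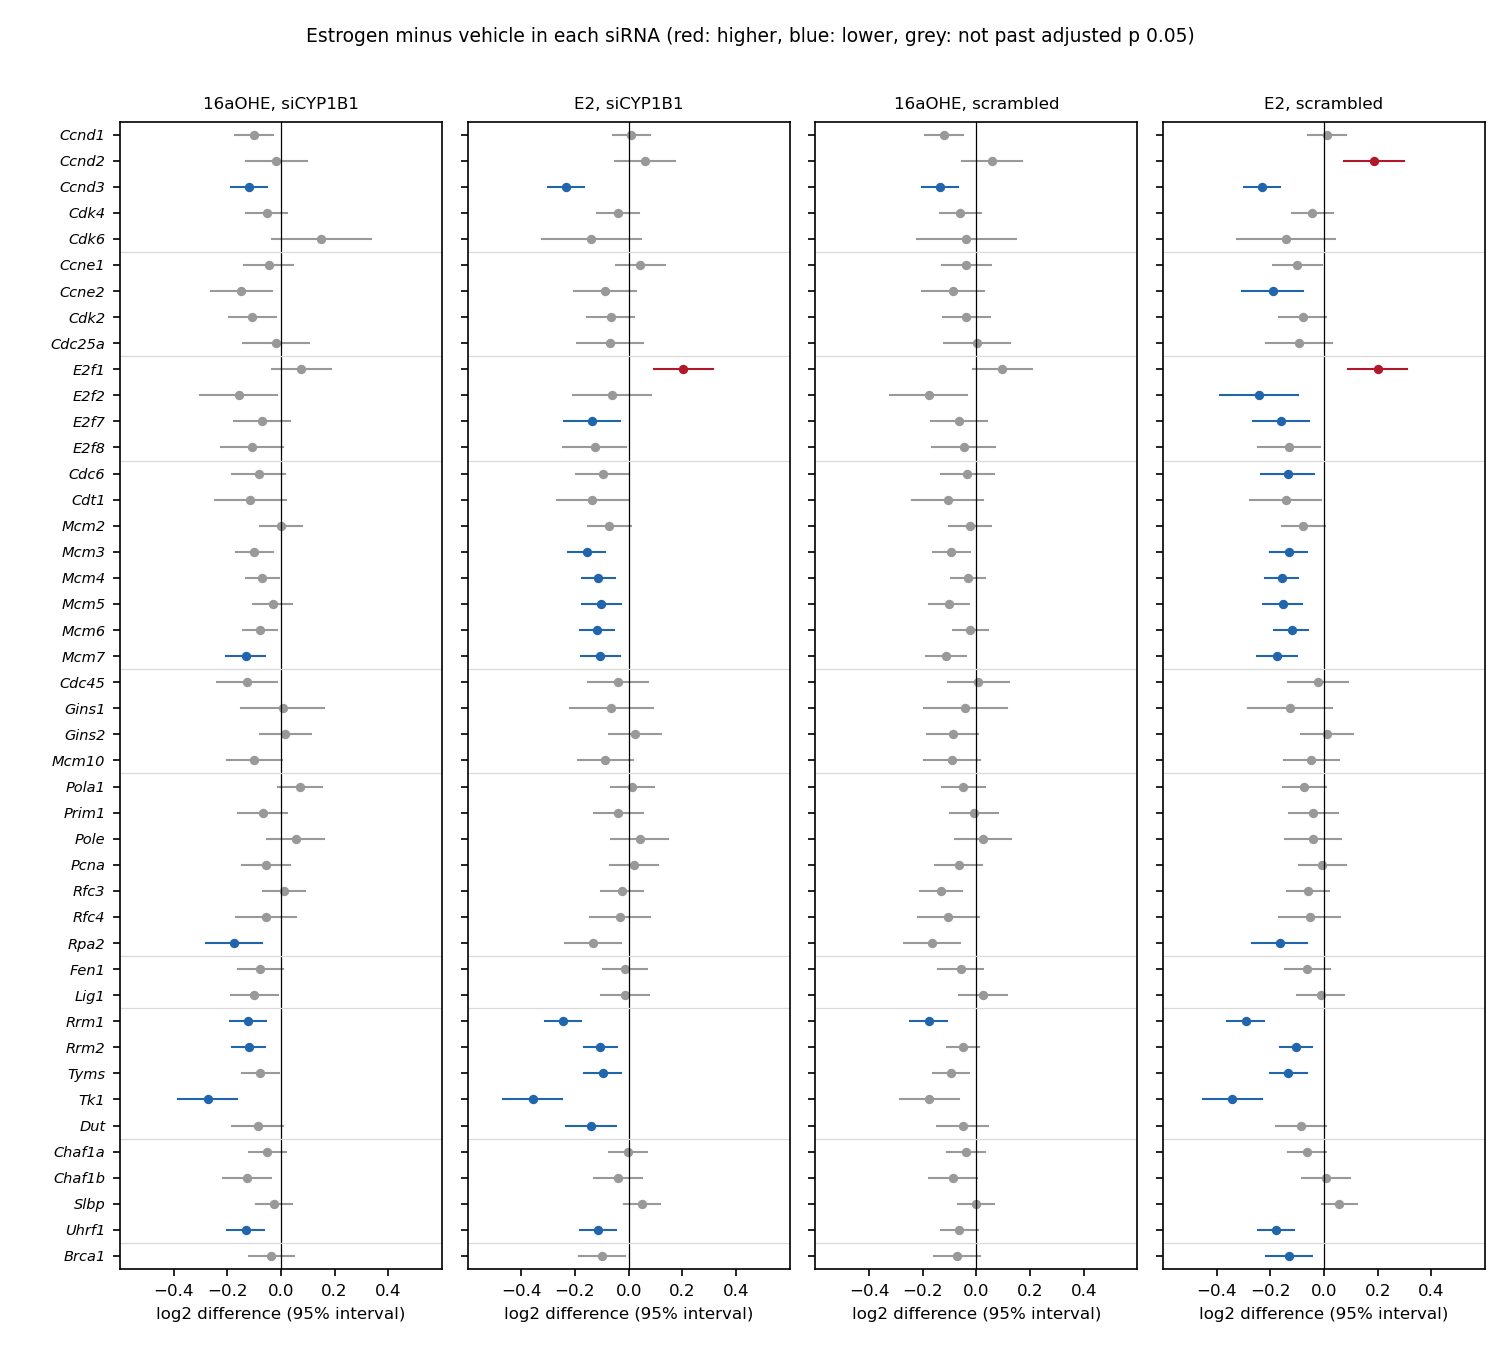
Log2 difference, estrogen minus vehicle, with its 95% interval for each of the 44 genes, for 16aOHE and E2 in siCYP1B1 and in scrambled cells; red marks genes called higher, blue genes called lower and grey the rest. E2 gave 13 blue genes in siCYP1B1 cells and 17 in scrambled cells, 16aOHE 7 and 2, and E2f1 is red with E2 in both siRNAs.

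Of the 8 licensing genes, 5 fell in siCYP1B1 cells and 6 in scrambled cells, where 10.8% and 11.4% of all tested genes fell. Mcm3, Mcm4, Mcm5, Mcm6 and Mcm7 fell in both siRNAs, by 0.10 to 0.16 in siCYP1B1 cells and by 0.12 to 0.18 in scrambled cells on the log2 scale, and Mcm2 was not called (log2 -0.07 and -0.08). With quantile normalization the calls of Mcm4, Mcm5, Mcm6 and Mcm7 in siCYP1B1 cells were lost. Of 23 alternatives, the siCYP1B1 call of Mcm5 was lost in 6 and that of Mcm7 in 5. Mcm4 had 365.3, 366.0 and 365.3 CPM in siCYP1B1 E2 libraries, against 391.3, 397.1 and 397.7 CPM in siCYP1B1 vehicle libraries (log2 -0.11 ± 0.03 SE, limma adjusted p = 0.00781). In scrambled cells it had 348.0, 344.4 and 334.3 CPM with E2, against 386.5, 378.9 and 380.6 CPM with vehicle (log2 -0.16 ± 0.03 SE, adjusted p = 0.000439). Neither pair overlapped. Mcm3 fell by 0.16 ± 0.03 in siCYP1B1 cells and by 0.13 ± 0.03 in scrambled cells (SE; adjusted p = 0.00133 and 0.0046). Of the genes that load the helicase, Cdc6 fell in scrambled cells (log2 -0.14, adjusted p = 0.0371) and Cdt1 passed in neither siRNA. Uhrf1, which brings the maintenance DNA methyltransferase to newly copied DNA, fell by 0.11 ± 0.03 in siCYP1B1 cells and by 0.18 ± 0.03 in scrambled cells (SE; adjusted p = 0.0125 and 0.00029).

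At the fork, fewer genes passed. Rpa2, a subunit of the protein that coats single-stranded DNA, fell in scrambled cells (log2 -0.17 ± 0.05 SE, limma adjusted p = 0.0154) and had -0.13 in siCYP1B1 cells at adjusted p = 0.0518. The genes Pcna, Pola1, Prim1, Pole, Rfc3, Rfc4, Fen1 and Lig1 passed with E2 in neither siRNA, and Pcna differed by 0.02 in siCYP1B1 cells and by -0.01 in scrambled cells. The 95% intervals for Pcna ran from -0.07 to 0.11 in siCYP1B1 cells and from -0.09 to 0.08 in scrambled cells. Brca1, a repair gene, fell in scrambled cells (log2 -0.13 ± 0.04 SE, adjusted p = 0.0198).

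The cyclin D and E2F genes split by member. Ccnd3, the gene of cyclin D3, had 250.4, 231.7 and 249.8 CPM in siCYP1B1 E2 libraries, against 288.2, 287.6 and 284.2 CPM in siCYP1B1 vehicle libraries. In scrambled cells it had 233.5, 235.2 and 235.9 CPM with E2, against 271.8, 276.5 and 279.7 CPM with vehicle, and it fell by 0.23 ± 0.03 on the log2 scale in either siRNA (SE; limma adjusted p = 1.83e-05 and 1.76e-05). Ccnd2 went the other way in scrambled cells, with 885.2, 915.6 and 903.1 CPM with E2, against 735.0, 823.2 and 822.7 CPM with vehicle (log2 0.19 ± 0.05 SE, adjusted p = 0.0128). The first vehicle library was low, and without it, or with median-of-ratios size factors, this call was lost. Ccnd1 moved little, with log2 differences of 0.01 in both siRNAs.

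E2f1 was higher with E2 in both siRNAs, E2f7 was lower in both, with the siCYP1B1 call lost in 12 of 23 alternatives, and E2f2 was lower in scrambled cells. E2f1 had 71.59, 70.33 and 71.81 CPM in siCYP1B1 E2 libraries, against 60.38, 66.48 and 58.53 CPM in siCYP1B1 vehicle libraries (log2 0.20 ± 0.05 SE, limma adjusted p = 0.00631). It had 62.9, 61.13 and 65.96 CPM in scrambled E2 libraries, against 57.2, 52.96 and 54.82 CPM in scrambled vehicle libraries (log2 0.20 ± 0.05 SE, adjusted p = 0.00654). The groups were apart in both siRNAs, and E2f1 was the only one of the 44 genes called higher with E2 in both. E2f2 fell in scrambled cells (log2 -0.24 ± 0.07 SE, adjusted p = 0.0117) and had -0.06 in siCYP1B1 cells. E2f7 fell by 0.14 ± 0.05 in siCYP1B1 cells and by 0.16 ± 0.05 in scrambled cells (SE; adjusted p = 0.0462 and 0.0188). Ccne2 fell in scrambled cells (log2 -0.19 ± 0.06 SE, adjusted p = 0.0118), while Ccne1 passed in neither siRNA (log2 0.04 in siCYP1B1 cells and -0.10 in scrambled cells).

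The E2 comparisons of the 2 siRNAs share no library. They do share each gene's estimate of spread, which came from all 18 libraries, so their calls are not independent. Both comparisons called 12 genes lower in common, 92.3% of the 13 in siCYP1B1 cells and 70.6% of the 17 in scrambled cells, and 39 of the 44 had the same sign. Among the 12, the siCYP1B1 calls of Mcm4, Mcm5, Mcm6, Mcm7 and Rrm2 were lost with quantile normalization. The overlap and signs of all tested genes were not counted. The summed level of the 5 nucleotide supply genes was 1565 to 1611 CPM in siCYP1B1 E2 libraries and 1775 to 1810 CPM in siCYP1B1 vehicle libraries. It was 1462 to 1517 CPM in scrambled E2 libraries and 1691 to 1707 CPM in scrambled vehicle libraries. Mesothelial and epithelial markers also differed, with sums of 2374 to 2447 CPM in siCYP1B1 E2 libraries and 2861 to 3005 CPM in siCYP1B1 vehicle libraries, and of 2871 to 3057 CPM in scrambled E2 libraries and 3667 to 3750 CPM in scrambled vehicle libraries. Fibroblast markers summed to 3198 to 3305 CPM in siCYP1B1 E2 libraries and 4840 to 5114 CPM in siCYP1B1 vehicle libraries, and to 3958 to 4426 CPM in scrambled E2 libraries and 6037 to 6358 CPM in scrambled vehicle libraries. With E2, in either siRNA, 5 of 6 tested mesothelial and epithelial, 3 of 4 fibroblast, 3 of 4 endothelial, 1 of 3 smooth muscle and 0 of 2 leukocyte markers were called lower and none higher. Of all tested genes 10.8% were lower in siCYP1B1 cells and 11.4% in scrambled cells. The part of the markers in these results was not tested. The 13 lower in siCYP1B1 cells became 8 without siCYP1B1 vehicle library 3, and the 2 higher in scrambled cells became 1 without scrambled vehicle library 1.

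The third question is what 16aOHE, a hydroxylated estrogen, did at the same dose and time. It moved fewer of the 44 genes: 7 fell in siCYP1B1 cells and 2 in scrambled cells, and none rose in limma, with or without adjustment at p under 0.05. Of all tested genes 2.86% were called lower in siCYP1B1 cells and 2.08% in scrambled cells, and 2.53% and 1.76% higher, against 15.9% and 4.55% of the 44 lower. Medians of the 44 were -0.08 in siCYP1B1 cells and -0.06 in scrambled cells, against -0.01 and 0.00 over all genes, and 18 and 11 of the 44 were lower without adjustment, where 19.1% of all tested genes in siCYP1B1 cells and 14.9% in scrambled cells passed in either direction.

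Rrm1 and Ccnd3 were the 2 genes lower with 16aOHE in both siRNAs. The vehicle libraries used here are those that E2 was set against, so falls with 16aOHE and with E2 are not independent. Rrm1 had 635.4, 663.4 and 694.2 CPM in siCYP1B1 16aOHE libraries, against 713.6, 728.8 and 726.0 CPM in siCYP1B1 vehicle libraries (log2 -0.12 ± 0.03 SE, limma adjusted p = 0.0309). In scrambled cells it had 659.8, 681.4 and 670.7 CPM with 16aOHE, against 767.6, 747.2 and 760.3 CPM with vehicle (log2 -0.18 ± 0.03 SE, adjusted p = 0.00254). The groups did not overlap in either siRNA. Ccnd3 fell by 0.12 ± 0.03 in siCYP1B1 cells and by 0.14 ± 0.03 in scrambled cells (SE; adjusted p = 0.0345 and 0.0174). Tk1 had 72.37, 73.19 and 72.11 CPM in siCYP1B1 16aOHE libraries, against 85.98, 90.41 and 87.27 CPM in siCYP1B1 vehicle libraries (log2 -0.27 ± 0.05 SE, adjusted p = 0.00343). It differed by -0.18 in scrambled cells at adjusted p = 0.0733. The remaining genes that fell in siCYP1B1 cells were Rpa2, Uhrf1, Mcm7 and Rrm2, by 0.12 to 0.18 on the log2 scale.

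Mesothelial and epithelial markers summed to 2701 to 2843 CPM in siCYP1B1 16aOHE libraries and 2861 to 3005 CPM in siCYP1B1 vehicle libraries, and to 3329 to 3562 CPM in scrambled 16aOHE libraries and 3667 to 3750 CPM in scrambled vehicle libraries. With 16aOHE, in either siRNA, 3 of 6 tested markers of that list, 2 of 4 fibroblast, 1 of 4 endothelial, 1 of 3 smooth muscle and 0 of 2 leukocyte markers were called lower. Of all tested genes 2.86% were lower in siCYP1B1 cells and 2.08% in scrambled cells. The part of the markers was not tested. The 7 lower in siCYP1B1 cells became 2, 1 and 3 without siCYP1B1 vehicle library 1, 2 and 3 in turn, and 2 or 4 without siCYP1B1 16aOHE library 2 or 3. The 2 lower in scrambled cells became 1 without scrambled vehicle library 2 or scrambled 16aOHE library 1 or 2, and 4 without siCYP1B1 16aOHE library 2. Tk1 in siCYP1B1 cells and Rrm1 in scrambled cells passed in every fit that left out a library.

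Set directly against E2 at the same dose, 16aOHE left 3 of the 44 genes higher and 1 lower in siCYP1B1 cells, and 6 higher and 1 lower in scrambled cells. The shares of all tested genes were 6.59% higher and 11.8% lower in siCYP1B1 cells, and 6.78% higher and 11.6% lower in scrambled cells, against 6.82% and 2.27%, and 13.6% and 2.27%, of the 44. In siCYP1B1 cells the share higher was thus near that of all genes. The libraries compared here are the 16aOHE and E2 libraries that were set against vehicle above. Higher with 16aOHE than with E2 in both siRNAs were Rrm1 (log2 0.12 ± 0.03 SE in siCYP1B1 cells and 0.12 ± 0.03 in scrambled cells, limma adjusted p = 0.0127 and 0.0184) and Ccnd3 (0.11 ± 0.03 and 0.10 ± 0.03, adjusted p = 0.0171 and 0.0443), whose call in scrambled cells was lost in 13 of 23 alternatives. Tk1, Mcm4, Uhrf1 and Mcm6 were higher with 16aOHE in scrambled cells, with log2 differences of 0.17, 0.13, 0.12 and 0.10. Mcm4 had 375.6, 373.2 and 372.3 CPM in scrambled 16aOHE libraries, against 348.0, 344.4 and 334.3 CPM in scrambled E2 libraries, and its groups were far apart (adjusted p = 0.00526).

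Ccnd1 was the gene lower with 16aOHE than with E2. It had 1337, 1445 and 1432 CPM in siCYP1B1 16aOHE libraries, against 1499, 1520 and 1527 CPM in siCYP1B1 E2 libraries (log2 -0.11 ± 0.03 SE, limma adjusted p = 0.0281). In scrambled cells it had 1286, 1307 and 1319 CPM with 16aOHE, against 1396, 1425 and 1464 CPM with E2 (log2 -0.13 ± 0.03 SE, adjusted p = 0.00981). No libraries overlapped, but with median-of-ratios size factors neither call held. Cdk6 was higher with 16aOHE in siCYP1B1 cells, with 195.4, 235.0 and 191.4 CPM against 146.7, 180.2 and 181.2 CPM with E2 (log2 0.29 ± 0.09 SE, adjusted p = 0.0264), where 1 library in each group stood away from the other two and the call was lost without either of them. Rrm2 did not pass, and the 95% interval of 16aOHE minus E2 ran from -0.08 to 0.04 log2 in siCYP1B1 cells and from -0.01 to 0.12 in scrambled cells. The 6 higher in scrambled cells became 3 without scrambled E2 library 1, 2 or 3 or scrambled 16aOHE library 2, and 2 without scrambled 16aOHE library 3, and the 3 higher in siCYP1B1 cells became 1 without siCYP1B1 E2 library 1, while the 1 lower there became 0 without siCYP1B1 E2 library 2 or 3. With median-of-ratios size factors the splits were 4 higher and 0 lower in siCYP1B1 cells and 7 higher and 0 lower in scrambled cells.

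Whether the siRNA changed the response to an estrogen was tested as an interaction, and none of the 44 genes passed for E2 or for 16aOHE. The share of all genes called was 0% in both directions of both interactions. Without adjustment limma gave 1 of the 44 at p under 0.05 for E2 and 2 for 16aOHE, against 470 (3.97%) and 596 (5.04%) of all tested genes. The 1 was Ccne1, whose siRNA difference with E2 exceeded that with vehicle by 0.14 on the log2 scale (95% interval 0.02 to 0.27, adjusted p = 0.998). For Tk1 the interval of the E2 interaction ran from -0.17 to 0.14 and for Rrm1 from -0.05 to 0.14, so that changes in response within these bounds were not excluded with 3 libraries a group. The 2 for 16aOHE were Pola1, of the polymerase that starts each strand, and the clamp loader gene Rfc3 (adjusted p = 0.95 and 0.899).

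Lists outside the 44 give the rest of the pathway. Of 44 other G1/S and replication genes, 9 rose and 1 fell with siCYP1B1 in vehicle, 11 rose and 0 fell with E2, and 4 rose and 0 fell with 16aOHE. The shares higher were 20.5%, 25% and 9.09%, against 11.5%, 11.4% and 10.4% of all tested genes, so that with 16aOHE was near all genes. The shares lower were 2.27%, 0% and 0%, against 9.12%, 9.8% and 9.31% of all. With E2 against vehicle, 4 rose and 8 fell in siCYP1B1 cells, and 4 rose and 9 fell in scrambled cells. Of all tested genes, 16.7% rose and 10.8% fell in siCYP1B1 cells, and 18.6% and 11.4% in scrambled cells. Mybl2, a transcription factor gene that E2F controls, was 0.24 higher with siCYP1B1 in vehicle (limma adjusted p = 0.0118) and lower with E2 by -0.30 in both siRNAs (adjusted p = 0.00151 and 0.00168). Skp2, which marks the CDK inhibitor p27 for destruction, was 0.30 higher with siCYP1B1 under E2 (adjusted p = 8.33e-06). With 16aOHE against vehicle, 0 rose and 1 fell in siCYP1B1 cells, which was the histone chaperone gene Asf1b (log2 -0.16, adjusted p = 0.0102), and 0 rose and 0 fell in scrambled cells. Of all tested genes, 2.53% rose and 2.86% fell with 16aOHE against vehicle in siCYP1B1 cells, and 1.76% and 2.08% in scrambled cells. With 16aOHE against E2, 2 were higher and 4 lower in siCYP1B1 cells, and 4 higher and 1 lower in scrambled cells. The shares of all tested genes there were 6.59% higher and 11.8% lower in siCYP1B1 cells, and 6.78% and 11.6% in scrambled cells.

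Of 13 tested genes that brake G1/S, 1, 2 and 4 rose with siCYP1B1 in vehicle, E2 and 16aOHE and none fell. The shares higher were 7.69%, 15.4% and 30.8%, against 11.5%, 11.4% and 10.4% of all tested genes. The first 2 were thus near those of all genes, of which 9.12%, 9.8% and 9.31% were lower. E2f4, the gene of a repressing E2F, led in each arm, with log2 differences of 0.26, 0.22 and 0.22 (limma adjusted p = 0.000377, 0.00178 and 0.00177). With E2, 4 rose and 1 fell in either siRNA, where 16.7% of all tested genes rose and 10.8% fell in siCYP1B1 cells, and 18.6% and 11.4% in scrambled cells. The 1 that fell was Cdkn2c, an inhibitor of CDK4 and CDK6, with -0.41 in siCYP1B1 cells and -0.32 in scrambled cells (adjusted p = 1.83e-05 and 0.000265). Rbl1, which encodes the pocket protein p107, rose by 0.26 in siCYP1B1 cells (adjusted p = 3.58e-05), and Rbl2, its relative p130, rose by 0.24 in scrambled cells (adjusted p = 0.00636). With 16aOHE against vehicle none passed in siCYP1B1 cells and 1 fell in scrambled cells, the CDK inhibitor gene Cdkn2a (log2 -0.18). Of all tested genes, 2.53% rose and 2.86% fell with 16aOHE against vehicle in siCYP1B1 cells, and 1.76% and 2.08% in scrambled cells. With 16aOHE against E2, 1 was higher and 3 lower in siCYP1B1 cells, and 0 higher and 4 lower in scrambled cells. The shares of all tested genes there were 6.59% higher and 11.8% lower in siCYP1B1 cells, and 6.78% and 11.6% in scrambled cells.

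Genes of the later G2 and M phases were read beside them. Of 30 such genes, 14, 17 and 14 rose with siCYP1B1 in vehicle, E2 and 16aOHE and none fell, with medians of 0.12, 0.13 and 0.11. The shares higher were 46.7%, 56.7% and 46.7%, against 11.5%, 11.4% and 10.4% of all tested genes, of which 9.12%, 9.8% and 9.31% were lower. With E2, 15 fell and 1 rose in siCYP1B1 cells, and 16 fell and 0 rose in scrambled cells. Of all tested genes, 10.8% fell and 16.7% rose in siCYP1B1 cells, and 11.4% and 18.6% in scrambled cells. With 16aOHE 2 fell in either siRNA, where 2.86% of all tested genes fell in siCYP1B1 cells and 2.08% in scrambled cells. Plk1, a mitotic kinase gene, had -0.26 in siCYP1B1 cells and -0.28 in scrambled cells with E2 (limma adjusted p = 0.000254 and 0.000106), and Bub1b, of the spindle checkpoint, was 0.21 higher with siCYP1B1 in vehicle (adjusted p = 0.00339). With 16aOHE against E2, 8 were higher and 1 lower in siCYP1B1 cells, and 7 higher and 1 lower in scrambled cells. The shares of all tested genes there were 6.59% higher and 11.8% lower in siCYP1B1 cells, and 6.78% and 11.6% in scrambled cells.

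**Figure D5:**
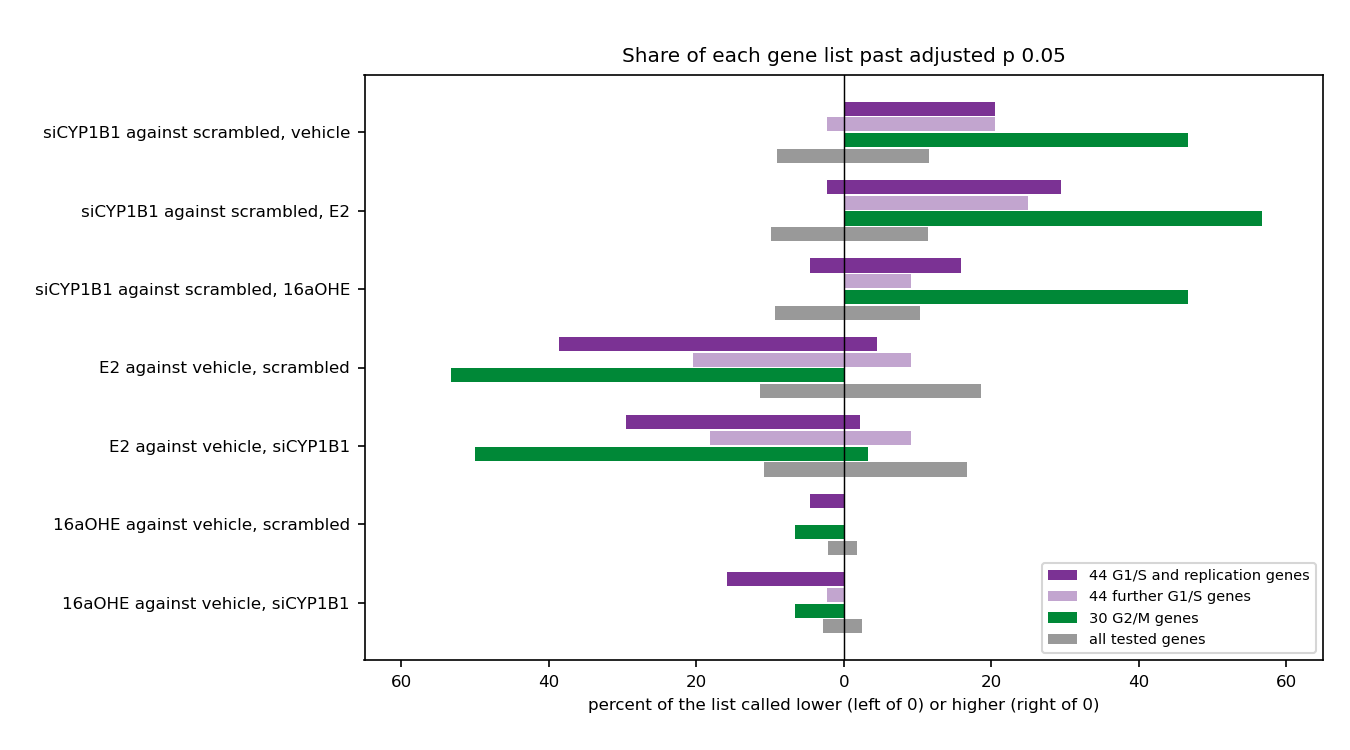
Percent of each gene list called lower (left of 0) or higher (right of 0) in 7 comparisons, for the 44 genes, 44 further G1/S genes, 30 G2/M genes and all 11835 tested genes. With siCYP1B1 under vehicle 20.5% of the 44 were higher against 11.5% of all genes, and with E2 in scrambled cells 38.6% were lower against 11.4%.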

How the data were processed

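RNA was sequenced in 18 mouse libraries, 6 groups of 3, grouped by the labels' siRNA and estrogen fields. The authors deposited a single table of CPM values with an offset of 1e-04 per value. Per the submitters' processing notes, TopHat2, Partek and the mm10 build were used, with versions, annotation and filtering steps not given. No column was left unused.

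Low values fell on steps worth 1 read, but 80.2% to 83.8% of values under 2 CPM came out whole within 0.1 reads, so they were not treated as counts. Of the genes, 11835 reached a mean of 1 CPM and were kept, and 3453 did not. log2(CPM + 1) was fitted as 6 group means by limma (version 3.58.1, functions lmFit and eBayes with the trend option, under R 4.3.3). The 11 contrasts were each adjusted by Benjamini-Hochberg over all tested genes, two-sided, with a threshold of 0.05, and "rose", "fell" and "called" refer to it. Fold changes on this scale understate low genes. The fit was tested on simulated data.

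The labels do not state whether the libraries within a group are separate cultures, and p-values therefore reflect library spread that could be technical alone. Libraries were numbered in accession order. The 44 genes, the further lists and the markers were chosen with earlier results of these data known. All 44 could be named, plus at most 2 called genes per further list and comparison, those with the largest difference. Levels per kb used exon lengths of GENCODE vM21. Promoter windows are RefSeq's for GRCm38.p6. Ccnd3, Pcna and Tyms have named copies, and 8 of the 44 (Ccnd1, Ccnd2, Ccnd3, Ccne2, Gins2, Rfc4, Lig1 and Tk1) overlap a listed gene on the opposite strand, so that their reads may be shared. Alternatives were a pseudocount of 0.1, no filter, median-of-ratios size factors, quantile normalization, a fit of only the groups compared and leaving out each library.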

Additional observations from a re-analysis of the deposited data

How the results depend on the processing

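The directions of the 85 calls were unchanged in every alternative run. With a pseudocount of 0.1 all 85 passed, and without a filter on low values 78 did. With median-of-ratios size factors 70 passed, with quantile normalization 70 and with only the groups compared 61. Over the 18 fits that left out a library, calls passed 1316 times and failed 214 times. Most of these fits left out a library of neither group compared, which alters the estimate of spread but not the difference. The failures thus understate how far calls rest on single libraries of the groups compared. The call of Mcm5 with E2 in siCYP1B1 cells failed without any siCYP1B1 E2 library, and without siCYP1B1 vehicle library 2 or 3. With median-of-ratios size factors, counts of the 44 genes became 2 lower for siCYP1B1 in vehicle (0 as reported), 1 higher for E2 in scrambled cells (2), 4 lower for 16aOHE in scrambled cells (2) and 0 lower for 16aOHE against E2 in both siRNAs (1 each). The same scaling gave 18 lower with E2 in siCYP1B1 cells (13) and 25 in scrambled cells (17), and 9 higher with siCYP1B1 under E2 (13). Quantile normalization gave 2 lower for siCYP1B1 in vehicle. Without a filter, 0 were lower for siCYP1B1 with 16aOHE (2) and 0 for 16aOHE against E2 in siCYP1B1 cells. With only the groups compared, siCYP1B1 gave 1 lower in vehicle, and 3 higher (7) and 1 lower with 16aOHE. The same fit gave 1 lower for 16aOHE against vehicle in siCYP1B1 cells (7), and for 16aOHE against E2 0 higher (3) and 0 lower in siCYP1B1 cells, and 2 higher (6) and 2 lower in scrambled cells. The causes were not tested, though that fit has fewer libraries. Under it the split of 16aOHE against E2 in scrambled cells was 50% higher (85.7% as reported).

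Leaving out single libraries, siCYP1B1 gave 3 to 10 higher and 0 to 1 lower in vehicle, 8 to 15 and 1 to 2 with E2, and 4 to 8 and 0 to 3 with 16aOHE. E2 gave 1 to 1 higher and 8 to 14 lower in siCYP1B1 cells, and 1 to 2 higher and 12 to 18 lower in scrambled cells. 16aOHE gave 1 to 7 lower in siCYP1B1 cells and 1 to 4 in scrambled cells, with 0 higher in both. 16aOHE against E2 gave 1 to 3 higher and 0 to 1 lower in siCYP1B1 cells, and 2 to 6 higher and 1 to 1 lower in scrambled cells. Both interactions stayed at 0, where limma without adjustment gave 1 and 2 of the 44, and Cyp1b1 stayed lower in all fits, at -0.20 to -0.15 in vehicle, -0.20 to -0.18 with E2 and -0.25 to -0.22 with 16aOHE.

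No paired analysis was possible because the labels carry no replicate numbers, and a block on accession order was not fitted. Depth limits the genes with fewest reads most, Gins1 at a mean of 19.6 CPM and E2f2 at 22.2 CPM, and 3 libraries a group limit every test.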
